A study of Mus musculus with 7 samples.

Results

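Cbln1, Cbln4 and C1ql2 encode secreted proteins with a C1q domain, and they are 3 of the 297 genes of a Xenium panel that was measured in mouse brain sections around the anterior thalamic nuclei. The genes were chosen by name, and their transcripts were followed in segmented cells with at least 5 transcripts of Slc17a6, of Slc17a7, or of Gad1 and Gad2 together, which is 263912 of 384076 cells. The study placed 7 hemisections, each 10 µm thick and cut from fresh-frozen WT brain, on 2 slides. The anterior group (bregma -0.58 mm) has 2 sections, the intermediate group (bregma -0.70 to -0.82 mm) has 2, and the posterior group (bregma -0.94 mm) has 3. Slide 1 holds replicates 1 and 2 of each position that has them, and slide 2 holds posterior replicates 3 and 4. The labels name no age, sex or strain. They also do not say which sections share an animal, so the p-values rest on section-to-section spread only, part of which may be technical.

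Cerebellins and C1q-like proteins are released from nerve terminals and act as synaptic organisers. Cbln1 bridges presynaptic neurexins to postsynaptic glutamate receptors of the delta family and is best known from the parallel fibre synapses of the cerebellum, while C1ql2 is known from hippocampal mossy fibre terminals, where it takes part in placing kainate receptors. Cbln4 is known from subsets of cortical and other neurons, including Sst interneurons, and C1ql2 also serves as a marker of the anterodorsal thalamic nucleus. Slc17a6 and Slc17a7 encode vesicular glutamate transporters, of which Slc17a6 prevails in thalamus and Slc17a7 in cortex and hippocampus, and Gad1 and Gad2 encode the enzymes that make GABA.

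The files hold 146504697 transcripts, with 17438577 to 23432215 per section and a median of 278 to 390 per cell. Among cells with at least 10 transcripts, 19661 passed the threshold of Slc17a6 alone, 92411 that of Slc17a7 alone and 92349 that of Gad1 and Gad2 alone, and these are called Slc17a6, Slc17a7 and Gad cells below. A further 12141 cells passed both the Slc17a6 and the Slc17a7 threshold, 7727 the Slc17a6 and Gad thresholds, 35367 the Slc17a7 and Gad thresholds, and 4256 all of them. The 40554 cells with no transcript of these 4 genes served as the background, at a lower depth (section medians of 108 to 143 transcripts per cell, against 346 to 474 in the 3 single classes). Segmentation can assign transcripts of adjoining cells to one cell. The summed level of 47 markers of other cell types was 853.83 to 1120.51 per 10000 transcripts in Slc17a6 cells, 683.61 to 780.66 in Slc17a7 cells, 885.69 to 975.89 in Gad cells and 3136.77 to 3390.3 in background cells. Levels below are a gene's transcripts per 10000 panel transcripts of a section's cells of one kind, and since probes differ between genes, a level of one gene is not set against that of another.

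Cbln1 was concentrated in Slc17a6 cells, Cbln4 was spread over Slc17a7, Gad and mixed cells, and C1ql2 was low in all single classes. Among cells that pass a threshold, C1ql2 was on average highest in those that hold both transporters (mean of 12.0 per 10000). Cells under every threshold with at least 5 transcripts of Gpr17, a receptor of committed oligodendrocyte precursors, had a mean of 12.3. Of all Cbln1 transcripts, 61.7% lay in Slc17a6 cells (32.98% to 71.15% by section). Of all Cbln4 transcripts, 31.7% lay in Slc17a7 cells, 17.6% in Gad cells, 15.2% in cells with Slc17a7 and Gad, and 12.7% in cells with Slc17a6 and Slc17a7. Of all C1ql2 transcripts, 25.8% lay in cells with Slc17a6 and Slc17a7 (2.3% to 40.6% by section), 20.6% in Gad cells and 12.0% in Slc17a6 cells.

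In Slc17a6 cells, Cbln1 had a lowest section level of 59.4 per 10000, a median of 95.8 and a highest of 147 (103 ± 33.9, SD, n = 7). In Slc17a7 cells it had 0.99 to 2.97 (2.14 ± 0.77), in Gad cells 1.77 to 4.43 (2.63 ± 1.03) and in background cells 0.98 to 2.13 (1.57 ± 0.36). Every section's Slc17a6 level was far above its levels in the other classes, and the levels in Slc17a7 and Gad cells overlapped those in background cells. The log2 ratio of Slc17a6 over Slc17a7 cells was 5.50 ± 0.36 (SE; edgeR quasi-likelihood test, adjusted p = 5.9e-10), where 83.6% of the 293 genes tested passed. That of Slc17a6 over Gad cells was 5.26 ± 0.36 (edgeR, adjusted p = 1.4e-09), where 76.8% of genes passed (34.8% higher), and that of Slc17a7 over Gad cells was -0.24 ± 0.31 (adjusted p = 0.48), where 81.2% passed. Of Slc17a6 cells, 50.7% to 76.5% held at least 1 Cbln1 transcript, against 4.0% to 6.9% of Slc17a7 cells and 1.5% to 3.1% of background cells. Between Slc17a6 cells and the others lay the cells with Slc17a6 and Gad, at 17.5 to 45.8 per 10000 (36.3 ± 10.6), which were above Gad cells by 3.95 ± 0.34 on the log2 scale and below Slc17a6 cells (log2 ratio -1.45 ± 0.31; edgeR, adjusted p = 9.9e-14 and 4.7e-05, where 80.5% and 78.2% of genes passed).

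Cbln4 had 15.3 to 21.7 per 10000 in Slc17a7 cells (18.2 ± 2.4, SD, n = 7), 9.20 to 15.6 in Gad cells (11.4 ± 2.3) and 5.99 to 26.0 in Slc17a6 cells (13.7 ± 7.5), against 1.98 ± 0.48 in background cells. Among the single classes, the sections ranged most widely in Slc17a6 cells, where their range took in the whole ranges of Slc17a7 and Gad cells. Slc17a7 cells were above Gad cells by 0.84 ± 0.24 (log2, SE; edgeR, adjusted p = 0.0042), and Slc17a6 cells were below Slc17a7 cells (log2 ratio -0.63 ± 0.24, adjusted p = 0.024). The second call was lost without anterior replicate 1 or intermediate replicate 1, and the sign turned when cells that pass several thresholds were counted in each class (log2 ratio 0.51, adjusted p = 2.9e-05). Slc17a6 over Gad cells did not pass (0.21 ± 0.24, adjusted p = 0.45). The highest levels stood in cells with Slc17a6 and Slc17a7, at 24.7 to 60.3 (42.4 ± 12.3), and in cells that pass all thresholds (44.3 ± 8.0).

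C1ql2 had 3.99 to 8.15 per 10000 in Slc17a6 cells (5.56 ± 1.37, SD, n = 7), 0.66 to 1.90 in Slc17a7 cells (1.03 ± 0.44) and 1.76 to 2.61 in Gad cells (2.22 ± 0.33). In background cells it had 2.37 to 3.82 (3.29 ± 0.45). Slc17a7 cells were below background cells in 7 of 7 sections and Gad cells in 6 of 7, with anterior replicate 2 the exception (2.498 in Gad cells, against 2.37). The background cells carry markers of other cell types and are no empty control. Slc17a6 cells were above Slc17a7 cells by 2.41 ± 0.24 and above Gad cells by 1.35 ± 0.23 (log2, SE; edgeR, adjusted p = 1.3e-07 and 6.1e-05), and Slc17a7 cells were below Gad cells (log2 ratio -1.06 ± 0.23, adjusted p = 0.00058). The last ratio turned to 0.12 (edgeR, adjusted p = 0.65) when cells that pass several thresholds were counted in each class. In cells with Slc17a6 and Slc17a7, C1ql2 had 8.399 and 3.51 in the anterior sections, 17.0 and 12.5 in the intermediate ones, and 23.6, 1.26 and 17.97 in the posterior ones. Posterior replicate 3 was lowest of all and posterior replicate 1 highest, so the posterior group alone spanned the range of all 7 sections.

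**Figure D1:**
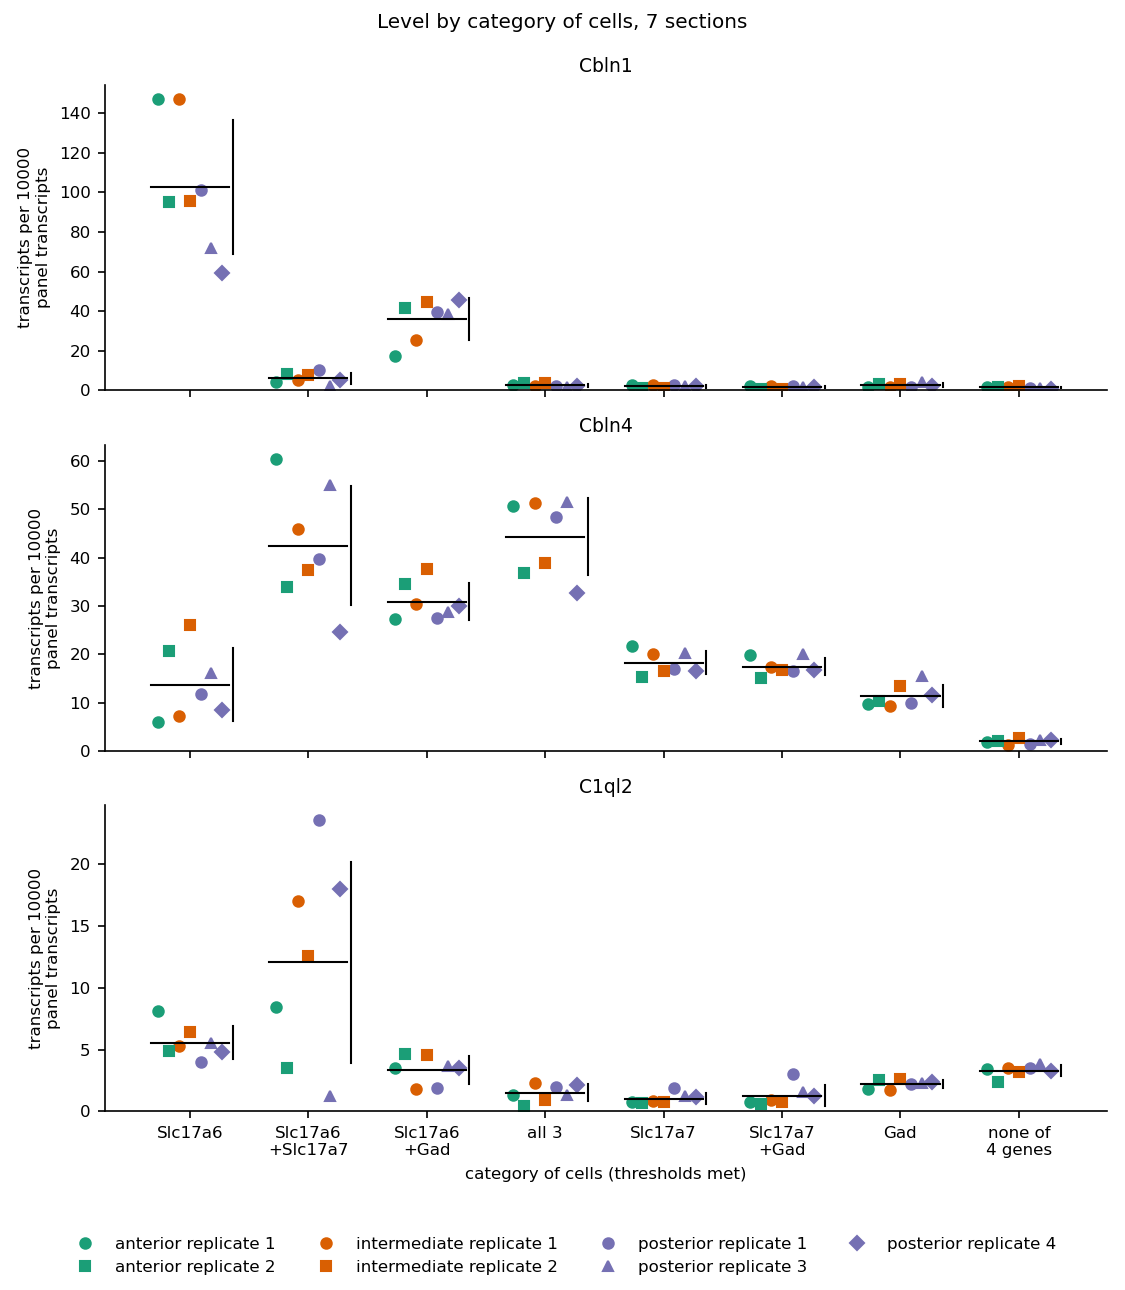
Level of Cbln1, Cbln4 and C1ql2 (transcripts per 10000 panel transcripts, linear axis) in each kind of cell, with a point for each of the 7 sections, a horizontal line at the mean and a vertical line over mean ± SD. Cbln1 is highest in Slc17a6 cells in every section (59.4 to 147), Cbln4 in cells with Slc17a6 and Slc17a7 or with all thresholds passed, and C1ql2 is spread from 1.26 to 23.6 in cells with Slc17a6 and Slc17a7.

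The tests of cells that pass more than 1 threshold were added after their levels had been seen. Cells with Slc17a6 and Slc17a7 had less Cbln1 than Slc17a6 cells (log2 ratio -3.83 ± 0.34), more Cbln4 (1.93 ± 0.20) and more C1ql2 (1.18 ± 0.36; edgeR, adjusted p = 1.3e-13, 1.8e-11 and 0.0025, where 85.3% of genes passed). For C1ql2 the edgeR call was not matched section by section. Its mean log2 ratio over sections was 0.66 ± 1.62 (SD, n = 7, higher in 5 of 7, exact sign-flip permutation p = 0.3125, adjusted p = 0.4688), and it was lower in anterior replicate 2 and posterior replicate 3. Against Slc17a7 cells they had more of each member, by 1.79 ± 0.31 for Cbln1, 1.496 ± 0.196 for Cbln4 and 3.76 ± 0.39 for C1ql2 (adjusted p = 2.7e-06, 7.8e-09 and 2.0e-11, where 79.2% of genes passed, 45.7% higher and 33.4% lower). Such a cell may express both transporters or combine transcripts of neighbours, which was not tested. Neighbouring kinds of cells in each member's order of levels were also compared in 24 exact sign-flip permutation tests over the 7 sections. None passed after adjustment (smallest adjusted p = 0.0625), in a design where 7 sections allow no exact p below 0.0156. At that limit stood 6 pairs, each with one direction in 7 of 7 sections, such as Cbln1 in Slc17a6 cells over the next kind (Slc17a6 and Gad), a pair that edgeR called.

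Cells of each class were then divided by the marker gene with the highest count of at least 5. This sets raw counts of different genes against each other, so membership also depends on how well the probes detect each marker. In Slc17a6 cells, Cbln1 was highest in those marked by Car4, a carbonic anhydrase, with 133 to 189 per 10000 (169 ± 19.5, SD, n = 7), and lowest in those marked by Nts, the neurotensin precursor, with 12.5 ± 8.4 (n = 6). When a cell was counted under every marker it passed, Nts had 29.8 ± 21.1 and Bhlhe22 was lowest with 17.03 ± 7.04 (n = 7 each). Cbln4 ran the other way, with 33.8 ± 14.3 in Nts-marked, 27.4 ± 10.9 in Calb2-marked and 1.25 ± 0.70 in Car4-marked cells. In between, cells marked by Necab1, a calcium-binding protein, varied widely for Cbln1 (12.0 to 180). C1ql2 stood at 7.51 ± 2.79 in Calb2-marked and 6.47 ± 3.57 in Car4-marked cells, against 1.01 ± 0.78 in cells marked by the serotonin receptor gene Htr2c. With cells counted under every marker passed, the 980 cells with Slit2, an axon guidance ligand, were first for C1ql2 (23.0 ± 13.4) and the 221 cells with Myo5c were first for Cbln1 (200.01 ± 26.0, n = 6).

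In Slc17a7 cells, Cbln4 was highest in those marked by Rorb, a transcription factor of cortical layer IV, at 28.0 to 47.4 per 10000 (37.9 ± 7.3, SD, n = 7), and lowest in those marked by Fezf2, a factor of deep-layer projection neurons, at 2.46 ± 0.70. Cux2-marked cells had 16.9 ± 2.9, which was below the Rorb-marked cells in 7 of 7 sections, and counting cells under each marker moved the Cux2 value to 30.2 ± 5.0. The mean C1ql2 level was above 1.5 only in cells marked by Prox1, a transcription factor of dentate granule cells and of thalamic neurons. Those cells had 1.19 and 1.51 in the anterior sections, 3.55 and 1.26 in the intermediate ones, and 43.7, 24.8 and 16.8 in the posterior ones. All 3 posterior sections lay above all others, on 393, 218 and 268 Prox1-marked cells, against 92 to 138 in the other sections. How many of all genes separate the positions this way in these cells was not counted.

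In Gad cells, Cbln4 was highest with Sst, the somatostatin gene, at 26.5 to 70.7 per 10000 (51.3 ± 16.6, SD, n = 7), followed by Nts (37.1 ± 9.4) and Pdyn (35.9 ± 8.0). It was lowest with Pvalb, the parvalbumin gene (4.34 ± 0.85), with the largest group, marked by Meis2, at 9.96 ± 1.90. When a cell was counted under every marker it passed, Sst was first at 29.9 ± 5.83 and Nts had 23.7 ± 6.60, but Pdyn was last at 5.75 ± 1.08, beside Pvalb at 5.82 ± 1.13. Cbln1 was highest in cells with no marker (7.54 ± 3.42) and with Nts (7.06 ± 3.35), and C1ql2 was highest in cells with no marker (4.63 ± 1.49). Across the 3 classes, 72 pairs of neighbours in these orders were compared by exact sign-flip permutation tests, and none passed (smallest adjusted p = 0.125, at the smallest exact p of 0.0156). Over 164 values (24 subgroups by section, which share libraries and depth), the genes with the most similar pattern were Tmem163 (Spearman rho 0.71), Pkib (0.60) and Arhgap12 (0.60) for Cbln1, then Slitrk6 and Rnf152. For Cbln4 they were Rspo1 (0.67), Rasgrf2 (0.64) and Cdh4 (0.64), then Lypd6 and Marcks, and for C1ql2 Epha8 (0.60), Sntb1 (0.58) and Arhgap12 (0.57), then Slitrk6 and Sema6a.

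**Figure D2:**
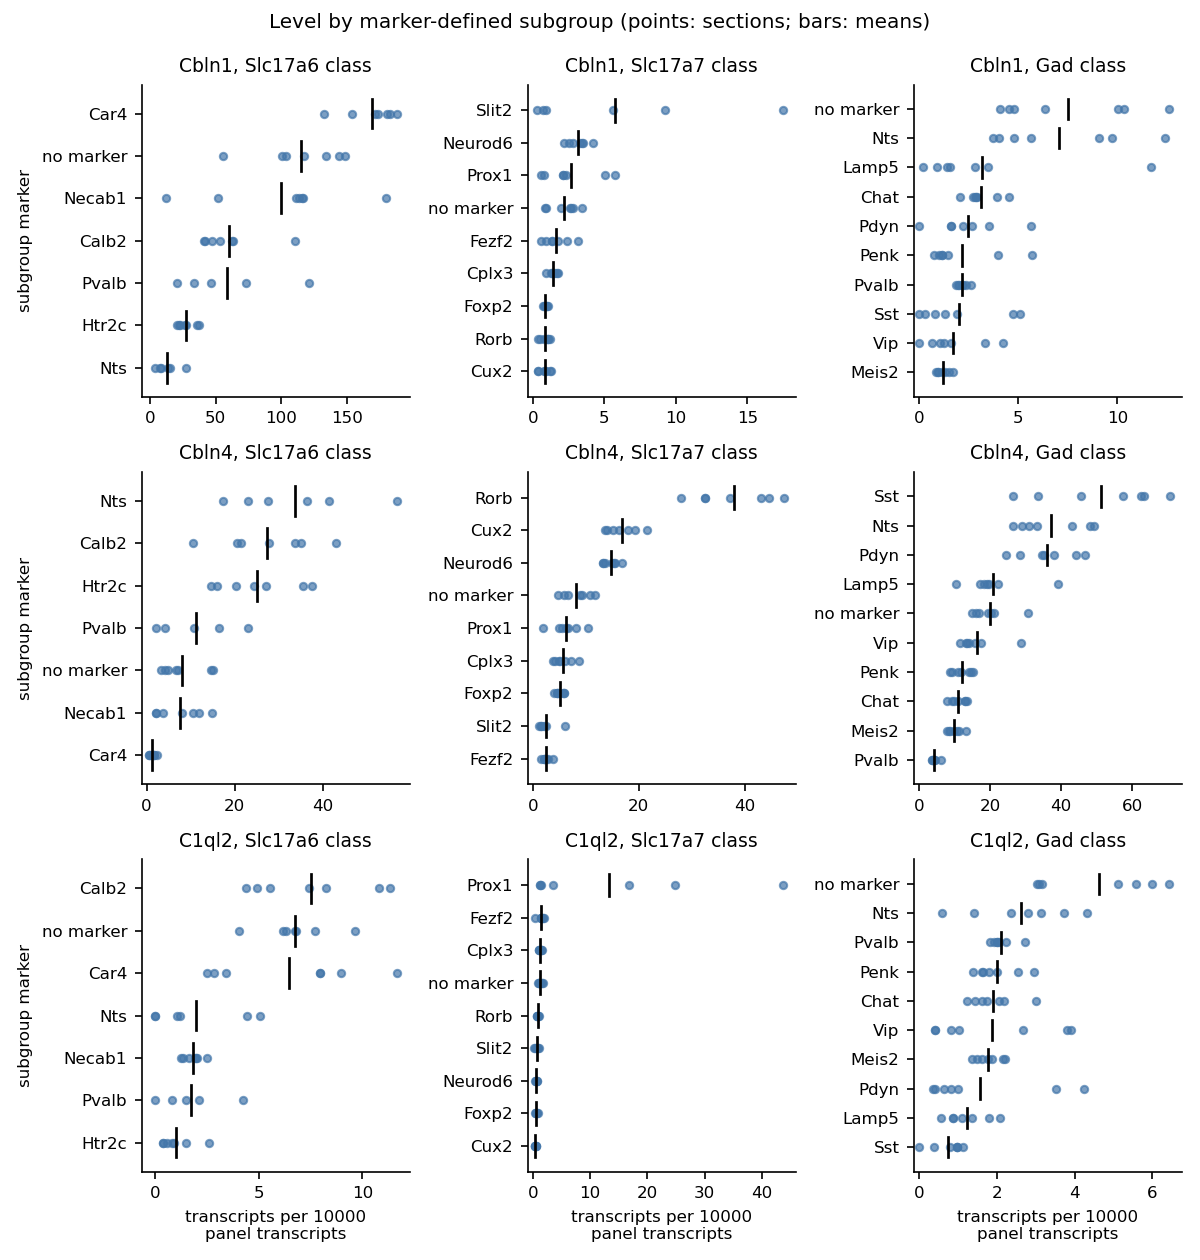
Level of each member (transcripts per 10000 panel transcripts, linear axes that differ between panels) in cells of the Slc17a6, Slc17a7 and Gad classes grouped by their leading marker gene (1 subgroup of Slc17a7 cells is not drawn), with a point per section and a bar at the mean. Car4-marked Slc17a6 cells lead for Cbln1 (133 to 189), Rorb-marked Slc17a7 cells (28.0 to 47.4) and Sst-marked Gad cells (26.5 to 70.7) lead their classes for Cbln4, and Prox1-marked Slc17a7 cells range from 1.19 to 43.7 for C1ql2.

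Whether the members change along the anterior to posterior axis was tested within each class. In Slc17a6 cells, Cbln1 had 147 and 95.3 per 10000 in the anterior sections, 147 and 95.8 in the intermediate ones, and 101.3, 71.8 and 59.4 in the posterior ones. The intermediate sections matched the anterior ones replicate by replicate, and posterior replicate 1 lay within the anterior range while the other posterior sections lay below it. Posterior over anterior gave a log2 ratio of -0.71 ± 0.35 (SE; edgeR, adjusted p = 0.996), and -0.32 ± 0.45 with the slide as a term. With the replicate number as a block the ratio was -0.62, with posterior replicate 1 alone for its group. C1ql2 in Slc17a7 cells had 0.72 and 0.66 in the anterior, 0.81 and 0.73 in the intermediate, and 1.90, 1.21 and 1.16 in the posterior sections. The posterior sections did not overlap the others, but how many of all genes separate this way was not counted. The log2 ratio of posterior over anterior was 1.02 ± 0.24 (edgeR, adjusted p = 0.17), and 1.44 ± 0.20 with the slide as a term. In the edgeR fit without the slide, 43 of 293 genes had an unadjusted p under 0.05. Within slide 1 the posterior group is 1 section and slide 2 holds posterior sections only. Cbln4 in Slc17a6 cells had 5.99 and 20.7 in the anterior, 7.20 and 26.0 in the intermediate, and 11.8, 16.1 and 8.43 in the posterior sections, with replicate 2 high at both positions that have it (log2 ratio of posterior over anterior -0.18 ± 0.68, adjusted p = 0.996). With the replicate number as a block, the sign turned and the ratio was 0.91, which rests on posterior replicate 1 alone for its group.

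None of the 18 member comparisons passed in edgeR, where 0% of the 293 genes did in any class. At an unadjusted p under 0.05, posterior over anterior gave 2 genes in Slc17a6, 43 in Slc17a7 and 34 in Gad cells, and intermediate over anterior gave 0, 1 and 0. DESeq2 called 0, 16 and 7 genes for posterior over anterior, with C1ql2 in Slc17a7 cells among them (adjusted p = 0.039). With the replicate number as a block, edgeR called 0, 64 and 39 genes, among them C1ql2 (log2 ratio 1.37, adjusted p = 3.5e-13) and Cbln4 (-0.31, adjusted p = 0.0017) in Slc17a7 cells. That fit leaves 1 residual degree of freedom, and posterior replicates 3 and 4, each alone in its block, add nothing to the ratio. The posterior over anterior change did not differ between classes for any member (0 of 9, 0% of genes in edgeR, with 10, 16 and 9 genes at an unadjusted p under 0.05 and 1, 2 and 0 called by DESeq2). The widest difference was that of C1ql2 in Slc17a6 minus Slc17a7 cells (-1.44 ± 0.44, edgeR adjusted p = 0.77).

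**Figure D3:**
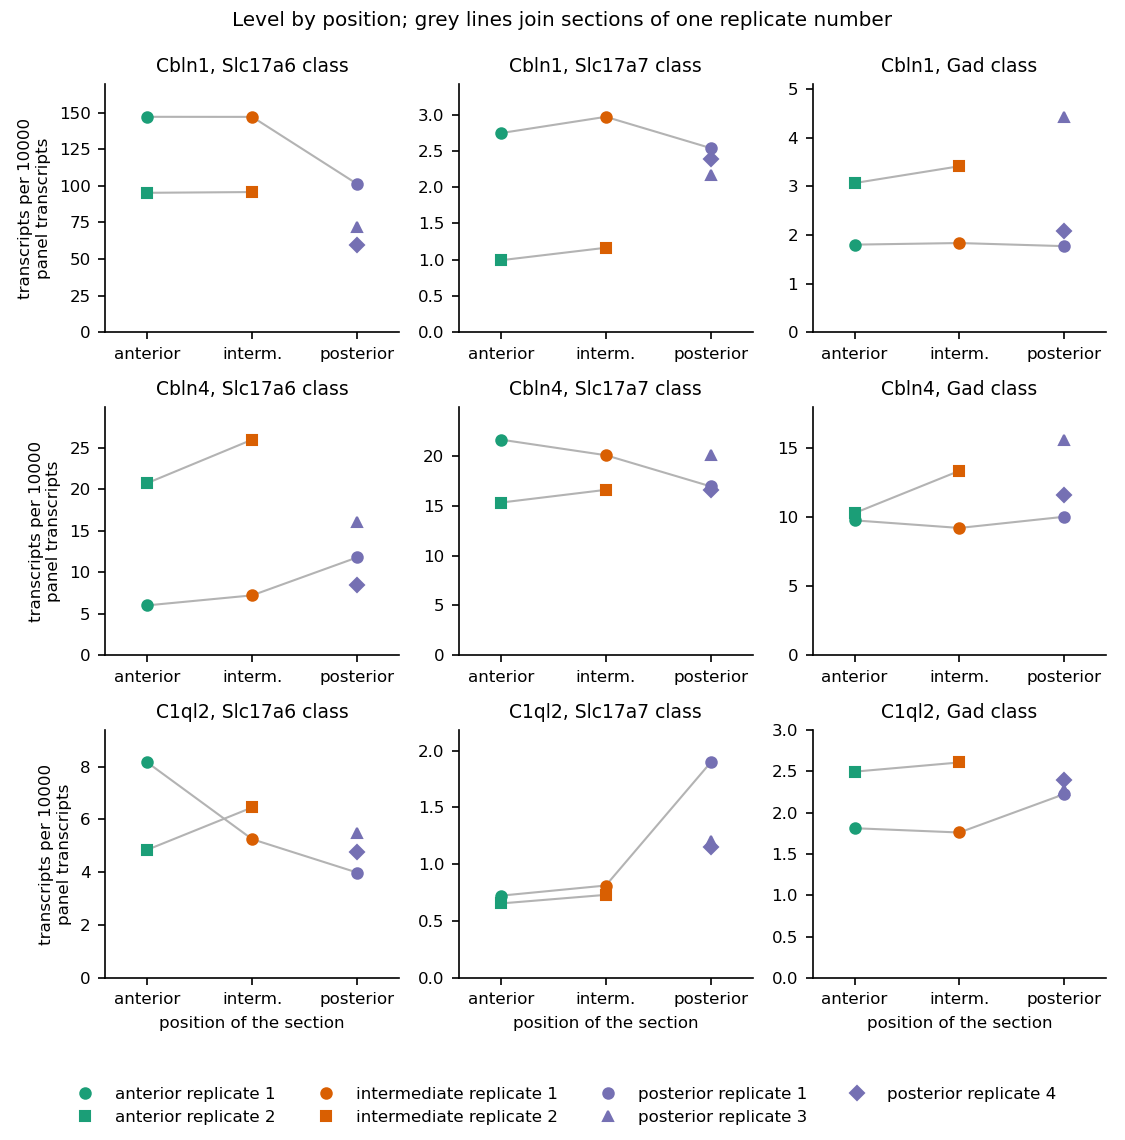
Level of each member (transcripts per 10000 panel transcripts) at the anterior, intermediate and posterior positions in Slc17a6, Slc17a7 and Gad cells, with a point per section, shaped by replicate number and coloured by position, and lines that join sections of one number. Replicates 1 and 2 differ alike at the anterior and intermediate positions, as for Cbln1 in Slc17a6 cells (147 and 95.3, against 147 and 95.8), and C1ql2 in Slc17a7 cells is above 1.1 in the 3 posterior sections only.

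Whether members share cells was tested after each cell was thinned at random to 200 transcripts, since deeper cells hold more of every gene. Cbln1 and Cbln4 were found together less often than independence gives in both glutamatergic classes and more often in Gad cells. In Slc17a6 cells, 12.2% of Cbln1-containing cells held Cbln4, against 25.0% of cells without Cbln1 (mean log2 odds ratio -1.52 ± 0.76, SD, below 0 in 7 of 7 sections). In Slc17a7 cells the shares were 11.8% and 22.0% (-1.09 ± 0.18, below 0 in 7 of 7), and in Gad cells 25.3% and 13.5% (0.84 ± 0.59, above 0 in 7 of 7). Each passed an exact sign-flip permutation test over sections (adjusted p = 0.0281 over 9 tests, at the smallest exact p of 0.0156). The test treats the 7 sections as independent, though same-numbered sections deviated together, and it was not repeated by replicate number. Only pairs of members were examined, here and below, so how often other pairs of panel genes depart from independence was not counted. In Gad cells the odds ratio ranged from 0.26 to 1.71, with replicate 2 of both positions at the upper end.

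Cbln1 and C1ql2 were also found together more often than independence gives in Gad cells, in 278 cells against 150.2 (0.99 ± 0.38, 7 of 7 sections above 0, exact permutation adjusted p = 0.0281). Cbln4 and C1ql2 shared Slc17a7 cells less often, with 203 cells against 351.7 (-0.89 ± 0.38, 0 of 7 above 0, adjusted p = 0.0281 by the exact permutation test). The remaining pairs did not pass, with Cbln1 and C1ql2 at -0.53 ± 0.96 in Slc17a6 cells and 0.29 ± 0.46 in Slc17a7 cells, and Cbln4 and C1ql2 at -0.46 ± 0.52 in Slc17a6 cells and 0.08 ± 0.50 in Gad cells. In cells with Slc17a6 and Slc17a7, a test added after the levels were seen, 1.19% of Cbln4-containing cells held C1ql2, against 15.4% of cells without Cbln4. This is 51 cells with both, against 420.6 under independence, and the log2 odds ratio was -3.52 ± 1.08 (0 of 7 above 0, exact permutation adjusted p = 0.0234 over 3 tests). Cbln1 and Cbln4 were apart there as well (-2.15 ± 0.93, 0 of 7 above 0, adjusted p = 0.0234 by the same exact test), and Cbln1 and C1ql2 did not pass (0.61 ± 1.37).

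**Figure D4:**
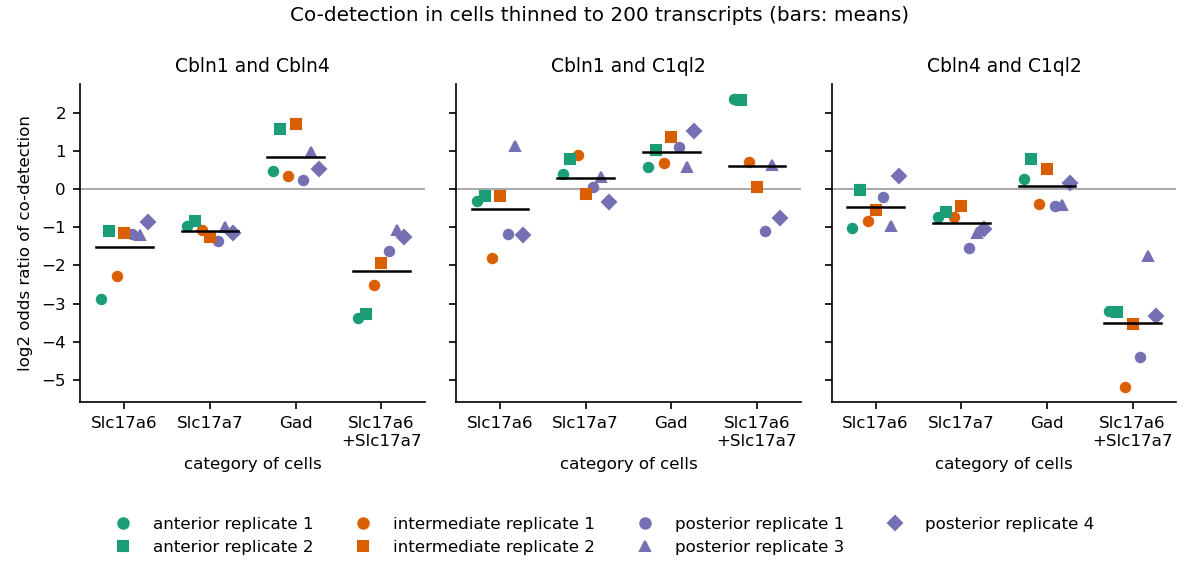
Log2 odds ratio of finding a pair of members in the same cell, after thinning to 200 transcripts, with a point per section and a bar at the mean, by kind of cell. Values below 0 mean fewer shared cells than independence gives. Cbln4 and C1ql2 in cells with Slc17a6 and Slc17a7 lie lowest (-5.21 to -1.74), and Cbln1 and Cbln4 lie below 0 in both glutamatergic classes and above 0 in Gad cells.

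To see which genes go with each member, cells with at least 3 of its transcripts (positive cells) were compared with cells of the same class that had 0 (negative cells), with the section as a block. Of Slc17a6 cells, 9106 (46.3%) were positive for Cbln1, 4019 had 1 or 2 transcripts and 6536 had none. Positive cells were deeper, with medians of 492 and 373 transcripts per cell in this comparison. In it, 84 genes (29%) were higher and 106 lower in Cbln1-positive cells (65.5% of 290 tested), and 58 higher and 162 lower when libraries were scaled by their totals, which moved the median of all genes by -0.30 (log2). The largest log2 rise was that of Myo5c, an unconventional myosin, at 15.4 ± 4.0 per 10000 in positive and 2.49 ± 0.91 in negative cells (log2 difference 2.999 ± 0.193, SE; edgeR, adjusted p = 1.6e-05). The ephrin receptor gene Epha8 (36.3 ± 8.6, against 8.26 ± 3.20), Car4 (79.1 ± 25.1, against 20.6 ± 6.7), the gap junction gene Gjc1 (35.01 ± 8.53, against 9.90 ± 5.14) and Prox1 (286 ± 64, against 79.4 ± 27.03) rose with it, each in 7 of 7 sections. The cortical factor Neurod6 (-3.70 ± 0.58), Lamp5 (-3.03 ± 0.46), Nts (-2.75 ± 0.45), Bhlhe22 (-2.46 ± 0.16) and Htr2c (-2.16 ± 0.23) were lower, as was Cbln4 itself (-1.15 ± 0.30, adjusted p = 0.0089). Of 47 markers of other cell types, 3 were higher (all of astrocytes) and 16 lower, and their part was not tested.

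In Cbln4-positive Slc17a6 cells (1766 cells), 99 genes were higher and 104 lower (70% of 290). Several genes moved opposite to the Cbln1 comparison, which draws on the same cells. Rspo1, a secreted activator of Wnt signalling, had 24.2 ± 9.0 per 10000 in positive and 4.94 ± 3.05 in negative cells (log2 difference 2.42 ± 0.33, edgeR adjusted p = 0.00013), and Nts had 31.2 ± 16.9, against 7.09 ± 4.87. The substance P receptor gene Tacr1 (2.24 ± 0.28), Plcxd3 (2.09 ± 0.24) and Htr2c (1.86 ± 0.24) were also higher. Car4 had 9.09 ± 3.797, against 65.7 ± 16.2, and Prox1 had 35.8 ± 10.6, against 244 ± 56, with Gjc1 (-2.84 ± 0.23) and Myo5c (-2.68 ± 0.23) lower too. Cbln1 was lower by the same test (-1.14 ± 0.18), and the lower level of C1ql2 (-0.80 ± 0.33, adjusted p = 0.0475) lost its call at a threshold of 5, after thinning and without the filter on low counts. Of 47 markers of other cell types, 2 were higher and 32 lower in these cells, and their part in the result was not tested.

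In C1ql2-positive Slc17a6 cells (520 cells), 48 genes were higher and 40 lower (30.3% of 290), and 38 and 66 when scaled by totals. Rspo3, another activator of Wnt signalling, had 48.5 ± 19.6 per 10000 in positive and 8.41 ± 2.26 in negative cells (log2 difference 2.64 ± 0.22, edgeR adjusted p = 2.5e-05). The axon guidance gene Slit2 had 71.3 ± 38.2, against 13.3 ± 4.5. Tacr1 (-3.40 ± 0.55), Ramp3 (-2.85 ± 0.22) and Nts (-2.59 ± 0.53) were lower. Gfap, an astrocyte gene, was among those higher (2.28 ± 0.25). The summed level of the 8 astrocyte markers was 390.72 to 895.22 per 10000 in positive and 475.22 to 671.98 in negative cells, and 2 of the 8 (Aqp4 and Gfap) passed as higher. Their part in the result was not tested.

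In Slc17a7 cells, 10527 were Cbln4-positive, and 113 genes were higher and 153 lower (91.1% of 292). Scaling by totals gave 66 and 207 and moved the median of all genes by -0.65, the widest such shift, so the differences here hold relative to that scale. Rspo1 led, with 55.7 ± 6.2 per 10000 in positive and 6.63 ± 1.18 in negative cells (log2 difference 3.74 ± 0.06, edgeR adjusted p = 9.1e-13). The presynaptic gene Rims3 had 281 ± 11, against 88.9 ± 8.6, Rorb had 199 ± 13.5, against 76.2 ± 5.5, and Lamp5 had 189 ± 9.5, against 75.4 ± 6.8. Foxp2, a transcription factor known from deep cortical layers, was lower at 5.25 ± 0.68, against 27.7 ± 2.7, as was Rprm at 11.4 ± 1.3, against 75.3 ± 4.9. Nxph3, a secreted ligand of neurexins, had 9.23 ± 1.59, against 54.6 ± 7.0 (-1.92 ± 0.10), and Cbln1 (-1.297 ± 0.109) and C1ql2 (-0.98 ± 0.22) were lower as well. The 47 markers of other cell types summed to 394.66 to 432.26 per 10000 in positive and 771.5 to 869.86 in negative cells, with 43 lower, and their part was not tested.

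Cbln1-positive Slc17a7 cells were few (621, with enough in 6 sections), with 72 genes higher and 69 lower (48.3% of 292), or 42 and 110 when scaled by totals. They had more Prph, an intermediate filament gene (3.04 ± 0.30), Htr2c (2.61 ± 0.20), Pvalb (2.71 ± 0.62) and Rbp4 (2.09 ± 0.25), and less Foxp2 (-2.18 ± 0.37) and Cbln4 (-1.37 ± 0.16; edgeR, adjusted p at most 0.0079). Of the 47 markers of other cell types, 2 were higher and 18 lower there, and their part was not tested. C1ql2-positive Slc17a7 cells numbered 246, with enough in 3 sections only, all of them posterior. There 73 genes were higher and 79 lower (52.1% of 292), or 57 and 100 by totals. Prox1 had 206 ± 11.5 per 10000 in positive and 9.87 ± 0.61 in negative cells (4.59 ± 0.23), Pdyn, the prodynorphin gene, had 24.4 ± 5.5, against 2.35 ± 0.12, and Calb1, the calbindin gene, had 107 ± 6.6, against 56.4 ± 0.7. Cux2 (-3.30 ± 0.26), Neurod6 (-3.47 ± 0.24) and Cbln4 (-4.16 ± 0.51) were lower (edgeR, adjusted p at most 9.9e-15). With 3 sections few residual degrees of freedom remain, so these p-values rest largely on spread that edgeR shares over genes. Prox1 and Calb1 are the genes listed here for dentate granule cells. Of the 47 markers of other cell types, 13 were higher and 3 lower, with a sum of 887.65 to 1314.49 in positive and 696.18 to 764.56 in negative cells, and their part was not tested.

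In Gad cells, 4741 were Cbln4-positive, with 118 genes higher and 122 lower (82.2% of 292). Npy2r, a receptor of neuropeptide Y, had 21.6 ± 2.6 per 10000 in positive and 4.61 ± 0.97 in negative cells (log2 difference 2.31 ± 0.11, edgeR adjusted p = 1.5e-08). Calb2, the calretinin gene, had 110 ± 37, against 29.7 ± 9.2, Chodl had 11.4 ± 1.2, against 3.45 ± 0.58, and Sst had 23.1 ± 5.7, against 7.65 ± 1.06. Pvalb had 38.6 ± 11.9, against 182 ± 47, and the striatal signalling gene Ppp1r1b had 52.5 ± 17.4, against 300.04 ± 32.2. Cbln1 was higher (1.19 ± 0.21). Of the 47 markers of other cell types, none was higher and 42 were lower. In Cbln1-positive Gad cells (754), 90 genes were higher and 98 lower (64.4% of 292). Calb2 had 190 ± 53, against 36.7 ± 9.7 in negative cells, and C1ql2 (1.42 ± 0.31) and Cbln4 (1.07 ± 0.23) were higher, while Ppp1r1b (-3.78 ± 0.25), Bcl11b (-2.74 ± 0.22) and Meis2 (-2.13 ± 0.26) were lower (edgeR, adjusted p at most 0.0024). Of the markers of other cell types, 8 were higher and 20 lower, and the part of these lists was not tested.

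In C1ql2-positive Gad cells (377), 88 genes were higher and 98 lower (63.7% of 292), and the 3 genes with the largest rise, Cspg4, Pdgfra and Gpr17, are all known from oligodendrocyte precursors. Cspg4 had 78.4 ± 40.5 per 10000 in positive and 7.55 ± 0.80 in negative cells (log2 difference 3.30 ± 0.22), Pdgfra had 174 ± 85, against 18.5 ± 2.0 (3.19 ± 0.21), and Gpr17 had 53.3 ± 23.5, against 6.97 ± 1.09 (2.92 ± 0.20; edgeR, adjusted p at most 9.3e-08). Of the 5 oligodendrocyte markers, 3 were higher (Gjc3, Gpr17 and Pdgfra) and 1 lower, and the list summed to 244.51 to 714.77 per 10000 in positive and 149.54 to 200.82 in negative cells, higher in 7 of 7 sections. Cspg4 stands here in the list of 17 endothelial and vascular markers, of which it alone was higher and 14 were lower. Of all 47 markers of other cell types, 4 were higher and 28 lower. Their part in the result was not tested. Cbln1 (1.97 ± 0.30) and Cbln4 (0.66 ± 0.21) were also higher, the second of which lost its call after thinning (adjusted p = 0.083), and Pdyn (-3.21 ± 0.28) and Ppp1r1b (-2.73 ± 0.29) were lower.

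In cells with Slc17a6 and Slc17a7, compared after their levels had been seen, 4024 were Cbln4-positive and 1078 C1ql2-positive. The Cbln4-positive cells had 88 genes higher and 107 lower (67.7% of 288), or 55 and 166 by totals. Rspo1 had 78.4 ± 3.9 per 10000 in positive and 4.45 ± 1.90 in negative cells (log2 difference 4.74 ± 0.21), and Lamp5 had 248 ± 17, against 67.3 ± 30.4. C1ql2 had 0.28 ± 0.12, against 22.4 ± 13.998 (-5.56 ± 0.56), and Prox1 had 3.58 ± 0.77, against 70.8 ± 42.9 (edgeR, adjusted p at most 8.5e-05). The C1ql2-positive cells, with enough in 6 sections, had 106 genes higher and 106 lower (73.6% of 288). Serpinf1 had 67.9 ± 13.6, against 1.27 ± 0.22 (5.75 ± 0.19), Sncg, the gamma-synuclein gene, had 67.5 ± 30.3, against 1.304 ± 0.251, and Prox1 had 306 ± 41, against 21.8 ± 18.9. Cbln4 had 0.74 ± 0.18, against 45.4 ± 13.2 (-5.83 ± 0.27), and Calb1 (-5.43 ± 0.28) was lower (edgeR, adjusted p at most 2.3e-05). Calb1 was thus lower in these C1ql2-positive cells and higher in the C1ql2-positive Slc17a7 cells, a difference that was not tested. Of 46 markers of other cell types tested here, 30 were higher and 2 lower in C1ql2-positive cells (sums of 604.78 to 922.3 in positive and 321.35 to 551.07 in negative cells), and their part was not tested. The Cbln1-positive cells (451, in 6 sections) had 70 genes higher and 77 lower (51% of 288), with Ramp3 (2.397 ± 0.235) and Shisa6, a glutamate receptor partner (2.25 ± 0.20), higher, and Rspo1 (-3.61 ± 0.29) and Cbln4 (-2.50 ± 0.26) lower (edgeR, adjusted p at most 1.7e-05).

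**Figure D5:**
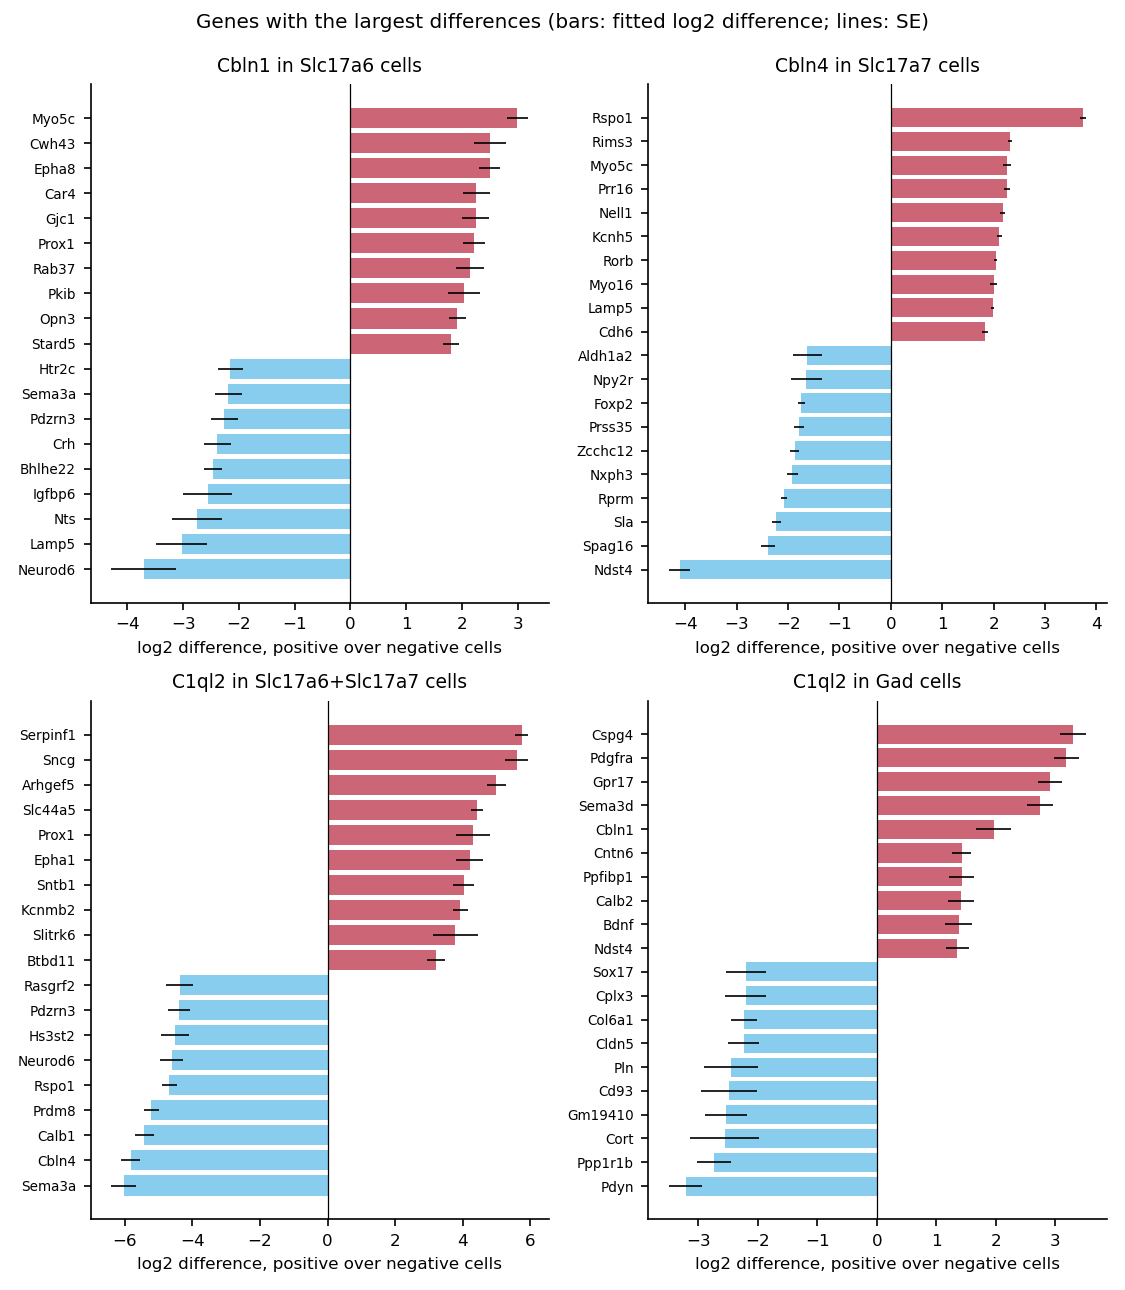
Log2 difference of member-positive over member-negative cells (edgeR, with SE) for up to 10 of the largest differences each way in 4 comparisons: Cbln1 in Slc17a6 cells, Cbln4 in Slc17a7 cells, and C1ql2 in cells with Slc17a6 and Slc17a7 and in Gad cells. Rspo1 stands apart for Cbln4 (3.74), Serpinf1 and Sncg lead for C1ql2 in cells with both transporters, and Cspg4, Pdgfra and Gpr17 lead for C1ql2 in Gad cells.

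The rest of the pathway was thinly covered by the panel. None of the 12 listed receptors and partners of these proteins was measured, and of 19 secreted organisers only the 3 members and Nxph3 were. Of 30 listed synaptic adhesion genes, 16 were measured. Between classes, 7 of them were higher and 5 lower in Slc17a6 over Slc17a7 cells, 8 higher and 3 lower in Slc17a6 over Gad cells, and 6 higher and 9 lower in Slc17a7 over Gad cells. Over all genes, 40.6% were higher and 43% lower in the first of these, 34.8% and 42% in the second, and 37.9% and 43.3% in the third. In Cbln1-positive Slc17a6 cells 9 of the 16 were higher and 2 lower, where 29% of all genes were higher and 36.6% lower. The median log2 difference of the 16 was 0.39, against -0.17 over all genes, and scaling by totals gave 7 higher and 6 lower. Epha8, Syndig1 (38.2 ± 4.0 per 10000, against 24.1 ± 3.2) and Nectin3 (55.2 ± 12.1, against 34.7 ± 2.3) were among those higher, and Cntnap4 (-0.97 ± 0.26) was lower. In C1ql2-positive Slc17a6 cells 7 were higher and none lower (median 0.26, against -0.06), where 16.6% of all genes were higher and 13.8% lower, with Cdh9 (1.61 ± 0.39) and the contactin gene Cntn6 (1.39 ± 0.15) first. In C1ql2-positive Slc17a7 cells 4 were higher and 8 lower (median -0.59, against -0.08), and in C1ql2-positive Gad cells 8 were higher and 3 lower (median 0.37, against -0.05). Over all genes, 25% were higher and 27.1% lower in these Slc17a7 cells, and 30.1% and 33.6% in these Gad cells.

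In Cbln4-positive cells the adhesion genes split 6 higher and 5 lower in Slc17a6 cells, 8 and 8 in Slc17a7 cells and 10 and 2 in Gad cells (median 0.31 in Gad cells, against -0.02 over all genes), with Cntnap4 first in Slc17a6 cells (1.73 ± 0.19) and in Gad cells (1.19 ± 0.07). Over all genes, 34.1% were higher and 35.9% lower in Slc17a6 cells, 38.7% and 52.4% in Slc17a7 cells, and 40.4% and 41.8% in Gad cells. In Slc17a7 cells the median of the adhesion genes was 0.20 and turned to -0.45 when scaled by totals. Of the 6 calcium-binding genes, none was higher and 2 lower in Cbln1-positive Slc17a6 cells (Calb2, -1.25 ± 0.22, and Pvalb, -0.67 ± 0.22, which lost its call after thinning), while 2 were higher and none lower in Cbln4-positive ones (Cabp7, 1.71 ± 0.30, and Calb2, 1.67 ± 0.22). Calls on 2 of 6 are a smaller share than the 65.5% and 70% of all genes called in these comparisons. In Gad cells 2 were higher and 3 lower with Cbln1, 4 and 2 with Cbln4, and 2 and 4 with C1ql2. There 64.4%, 82.2% and 63.7% of all genes were called. In Slc17a7 cells 3 were higher and 1 lower with Cbln1, 2 and 2 with Cbln4, and 3 and 1 with C1ql2. The shares of all genes called there were 48.3%, 91.1% and 52.1%. These values come from edgeR's test with Benjamini-Hochberg adjustment over all genes.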

How the data were processed

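Per the labels' protocols, fresh-frozen hemisections were processed for Xenium. The deposited values are raw counts of decoded transcripts for every gene in every cell, and their sums equalled the per-cell totals that the authors deposited in 100% of cells. The submitters' processing notes name Seurat. The labels do not say how cells were segmented or filtered. Of 297 symbols, 296 matched RefSeq, as did all 3 members. In all, 8 cell identifiers occurred in more than 1 section, with identical counts in 0.

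Members, lists and markers were chosen with earlier results of these data known. Cells with fewer than 10 transcripts were left out. Counts were summed per section and kind of cell and tested with edgeR 4.0.16 (R 4.3.3; TMM, quasi-likelihood F test, filterByExpr, Benjamini-Hochberg over all genes tested, threshold 0.05), with the section as a block except for position. Slc17a6, Slc17a7, Gad1 and Gad2 define the classes and were not tested, nor was the member that defines positive cells. DESeq2 1.42.0 was an alternative. Single values used exact two-sided sign-flip permutation tests (scipy 1.17.1), which treat the sections as independent. The labels do not say what a shared replicate number means. Same-numbered sections deviated together (correlations of 0.345 to 0.869 in Slc17a7, 0.366 to 0.832 in Slc17a6 and 0.332 to 0.744 in Gad cells, 4 pairs each, of which the 2 between the anterior and intermediate positions, with 2 sections each, are one value by construction), so the block's result stands beside that of position. Per comparison, named genes were the 10 largest changes each way among those that passed and moved one way in every section, up to 4 of each list, and the 5 most similar. The text gives part of these, and some results are not reported here. Counting error limits levels near background, and control probes gave 0.379 to 0.870 counts per cell.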

Additional observations from a re-analysis of the deposited data

Results flagged for a closer look

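C1ql2 in cells with Slc17a7 and Gad had 3.04 transcripts per 10000 in posterior replicate 1, against 0.61 to 1.55 in the other 6 sections. The gap to the next section was 0.614 of the whole range, above Dixon's 95% critical value for 7 values, and it was the only one of 21 levels (3 members in 7 kinds of cells) to be so far apart. Chance alone flags about 1 in 20 such groups.

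Cells under every class threshold enter the Results as background, in the order of levels and with the mean C1ql2 level of those with Gpr17. Among them, C1ql2 was higher in cells with at least 5 transcripts of Pdgfra, a marker of oligodendrocyte precursors, than in the other cells there. The mean log2 ratio was 1.13 ± 0.30 (SD, higher in 7 of 7 sections, exact sign-flip permutation p = 0.0156, adjusted over the 3 members to 0.0234). This comparison was added after the genes that go with C1ql2 in Gad cells had been seen. It was run for the 3 members only, so no share over all genes stands beside it.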

How the results depend on the processing

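Library totals or DESeq2 in place of TMM, the filter on low counts, class thresholds of 3 and 10, the marker threshold, thinning, the replicate block and leaving out each section kept the direction and call of most results. Of the alternative values of the main results 467 did, 38 lost the call, 8 gained it, 7 turned and 3 counts moved, and 298 of 329 gene results kept both under every alternative while 1 turned.

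Counting cells in every class they pass turned Cbln4 in Slc17a6 over Slc17a7 cells to 0.51 and C1ql2 in Slc17a7 over Gad cells to 0.12 (adjusted p = 0.65), and made Cbln4 in Slc17a6 over Gad cells 0.999 (adjusted p = 1.5e-08) and Cbln1 in Slc17a7 over Gad cells -0.77 (adjusted p = 0.011) pass. Cbln4 in Slc17a6 over Slc17a7 cells lost its call at a class threshold of 3 (-0.55) and on slide 1 alone (-0.54). Without single sections it ranged from -0.85 to -0.42. Cbln1 in Slc17a7 over Gad cells ranged from -0.40 to 0.026, C1ql2 in cells with Slc17a6 and Gad over Slc17a6 cells from -0.83 to -0.51 (called without anterior replicate 2), over Gad cells from 0.75 to 0.86 (call lost without anterior replicate 1, anterior replicate 2, intermediate replicate 2 or posterior replicate 4), and Cbln4 for posterior over anterior in Slc17a7 cells from -0.30 to 0.21.

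Position calls of members went to 1 with DESeq2 and 2 with the replicate block. The block changed no other call of a member (class counts of 247, 229 and 243 genes, against 245, 225 and 238).

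Thinning to 100 transcripts ended the call of co-detection (adjusted p = 0.0703 to 0.0844) for Cbln1 and Cbln4 in Slc17a6 (-1.29), Slc17a7 (-1.17) and Gad cells (0.71), for Cbln4 and C1ql2 in Slc17a7 cells (-0.91) and for Cbln1 and C1ql2 in Gad cells (1.24). It turned the uncalled Cbln1 and C1ql2 in Slc17a7 cells (-0.23) and Cbln4 and C1ql2 in Gad cells (-0.34). Without thinning, Cbln1 and C1ql2 gave 0.0078 in Slc17a6 cells, 0.37 in Slc17a7 cells (adjusted p = 0.047) and 1.09 in cells with Slc17a6 and Slc17a7 (adjusted p = 0.047), and at 3 transcripts without thinning Cbln4 and C1ql2 gave 1.48 in Gad cells (adjusted p = 0.023). With 6 sections the smallest exact permutation p is 0.0312, which took adjusted p-values to 0.0469 to 0.0562. The log2 odds ratios then ranged from -1.63 to -1.29 (Cbln1 and Cbln4, Slc17a6), -1.13 to -1.05 (Slc17a7) and 0.70 to 0.94 (Gad), from -0.80 to -0.31 (Cbln1 and C1ql2, Slc17a6, called without posterior replicate 3) and 0.90 to 1.06 (Gad), and from -0.59 to -0.37 (Cbln4 and C1ql2, Slc17a6, called without posterior replicate 4), -0.96 to -0.78 (Slc17a7) and -0.039 to 0.17 (Gad).

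Genes called with Cbln1 in cells with Slc17a6 and Slc17a7 numbered 97 after thinning, with 5 sections left, against 147, and Rspo2 with Cbln1 in Slc17a7 cells went to -0.053 at a threshold of 5. A threshold of 5 for C1ql2 in Slc17a7 cells left too few sections and was not run. The cause of these changes was not tested unless stated. Few sections per position, 1 class gene per class and transcripts of neighbouring cells limit all results.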

Other observations

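In cells under every class threshold, C1ql2 was higher in cells with a marker of oligodendrocyte precursors. The 7859 cells with at least 5 Pdgfra transcripts had 5.99 to 8.45 C1ql2 transcripts per 10000 (6.92 ± 0.999, SD, n = 7), against 2.54 to 3.62 (3.15 ± 0.43) in the 110936 other cells there. The ranges did not overlap. How many of all genes separate these cells this way was not counted, here or for Cbln4 below. These cells were deeper (median of 255 transcripts, against 154), and they were 6.62% of the cells and held 19.9% of the C1ql2 transcripts.

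By marker, the C1ql2 level was highest in the 1739 cells with Gpr17, a receptor of committed precursors, at 10.7 to 14.3 (12.3 ± 1.4). It was 9.98 ± 1.004 in cells with Cspg4, 4.62 ± 0.65 in cells with Opalin, a gene of mature oligodendrocytes, and 3.71 ± 0.52 in cells with the astrocyte gene Aqp4. Cells with Siglech, a microglial gene, had 3.32 ± 0.40, those with the endothelial gene Pecam1 1.91 ± 0.34, those with the fibroblast gene Dcn 1.22 ± 0.31, and those with the smooth muscle gene Acta2 0.87 ± 0.27. Neighbours in this order were not tested.

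Cbln4 was lower in Pdgfra-marked cells than in the other cells there (4.13 ± 0.93, against 7.18 ± 0.77, lower in 7 of 7 sections, exact permutation p = 0.0156, adjusted p = 0.0234), and Cbln1 did not pass (4.70 ± 1.55, against 5.40 ± 1.997, adjusted exact permutation p = 0.125). By marker, Cbln1 had 7.42 ± 2.29 with Cspg4, 7.35 ± 2.91 with Gpr17 and 6.58 ± 2.36 with Aqp4, and 1.56 ± 0.56 with Dcn. Cbln4 had 6.29 ± 1.22 with Cspg4, 6.20 ± 1.17 with Siglech and 5.55 ± 1.14 with Gpr17. It had 4.63 ± 1.02 with Pecam1, 4.26 ± 1.08 with Opalin, 4.05 ± 1.45 with Aqp4, 3.58 ± 0.36 with Acta2 and 2.20 ± 0.265 with Dcn. Low Cbln4 was thus not particular to Pdgfra-marked cells. Under every threshold, cells with at least 1 transcript of the 4 class genes had 8.87 ± 1.10, and background cells 1.98 ± 0.48.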
